A study of Rattus norvegicus with 6 samples.

Results

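The genes described here are the Wnt ligands, their receptors and their antagonists, followed in rat corneas after an allograft under resveratrol or saline. Members were taken by symbol: every listed Wnt, Fzd (Frizzled), Sfrp, Dkk and Rspo gene whose name goes on with a digit, together with Lrp5, Lrp6, Wif1, Frzb, Axin2, Lgr4, Lgr5, Lgr6, Znrf3 and Rnf43. This gave 49 of the 17771 listed genes, of which 17 are ligands, 12 Frizzled or LRP receptors, 10 secreted antagonists, 7 R-spondins or LGR receptors and 3 intracellular or membrane feedback inhibitors. In both groups a Wistar recipient had received corneal tissue from an SD donor and was injected intraperitoneally each day up to day 7, with saline in control and with resveratrol, a plant polyphenol, in the treated group. Bulk RNA of the cornea was sequenced in 3 control and 3 resveratrol libraries, with 35068936 to 37460756 gene counts per library. The labels give no ages, no sexes and no untransplanted group, and they do not say whether libraries came from separate animals or how much of the tissue was donor tissue. The p-values therefore measure only the spread between these libraries, which may be technical.

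Wnt proteins are secreted lipid-modified signals that bind a Frizzled receptor, and in the β-catenin branch also LRP5 or LRP6. Binding stops a destruction complex from degrading β-catenin, which then acts with TCF and LEF factors on target genes, among them the feedback inhibitors Axin2, Znrf3 and Rnf43. SFRP, WIF1 and FRZB proteins bind Wnt ligands outside the cell, while DKK1 and DKK2 act on LRP5 and LRP6. R-spondins raise signalling through LGR receptors by clearing ZNRF3 and RNF43 from the membrane. In the cornea the pathway is known for its part in limbal stem cell maintenance and in keeping the corneal epithelial identity.

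Labelled tissue identity held: Krt12, the keratin of corneal epithelium, lay at 31840 to 37570 CPM (counts scaled to library size, here with TMM factors) in every library. No marker of another cell type passed the adjusted threshold of edgeR. DESeq2 called some of them lower, beside 4.64% of all genes for which it gave an adjusted p. Of 9 fibroblast and myofibroblast markers DESeq2 called 6 lower, all 9 had a fitted change below 0 (48.8% of all tested genes had one above 0), and their summed FPKM (fragments scaled to gene length and library size) was 1932 to 2996 in the controls against 1142 to 1438 with resveratrol. Of 7 markers of blood vessel endothelium DESeq2 called 3 lower and 7 were below 0, with summed FPKM of 119.9 to 164.6 and 79.04 to 106.1. Of 7 macrophage markers 4 were called lower and 5 were below 0 (127.5 to 181.4 and 71.59 to 109.7 FPKM), and of 5 tested T cell markers 3 and 5 (4.025 to 10.6 and 2.458 to 2.64 FPKM). Of 6 tested corneal endothelial markers 2 were called lower and 5 were below 0, and the sums overlapped (50.35 to 83.75 and 43.35 to 50.92 FPKM). All 6 tested keratocyte markers were below 0 with 0 called, and their sums overlapped (2781 to 3188 and 2195 to 3066 FPKM), as did those of 7 corneal epithelial markers (46010 to 50790 and 47040 to 51990 FPKM), of which 6 were above 0 and 0 called. Of 6 iris muscle and lens markers DESeq2 called 1 lower (Des), and it called 0 limbal and conjunctival, melanocyte or Schwann cell markers. In bulk tissue, fewer cells of a type and less RNA per cell cannot be told apart.

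Most members hardly differed between the groups. Of the 49 members 37 passed the filter on low counts and were tested, and the quasi-likelihood test of edgeR gave 0 of them an adjusted p under 0.05, as was so for 0% of all 14213 genes tested. The smallest adjusted p of a member was 0.1002, that of Fzd2. At an unadjusted p under 0.05 there were 4 members, 1 higher (Fzd6) and 3 lower (Fzd2, Fzd4 and Frzb), or 10.8% of those tested, whereas 19.6% of all tested genes reached it (7.84% higher and 11.7% lower). DESeq2, run as an alternative, gave an adjusted p for 40 members and called 2 of them, Fzd2 lower and Fzd6 higher; it called 6.87% of all genes for which it gave one (2.23% higher and 4.64% lower). The CPM of the groups did not overlap for 6 tested members, 3 higher (Fzd6, Fzd8 and Znrf3) and 3 lower (Fzd2, Fzd4 and Rspo1), which is 16.2% against 26.5% of all tested genes (12.2% higher and 14.4% lower). Counted in either direction, the unadjusted and the non-overlap share of the members were below those of all tested genes. Of the 4 members at an unadjusted p under 0.05, Fzd2 and Fzd6 kept it in edgeR without each library in turn, Fzd4 in 2 of these 6 fits and Frzb in 1. Another 8 members (Dkk2, Lgr4, Lrp5, Wif1, Wnt11, Wnt3a, Wnt7a and Wnt7b) reached it in 1 of the 6 fits each and not with all libraries. Fitted log2 fold changes, given throughout as resveratrol minus control, were above 0 for 20 members and below 0 for 17, with a median of 0.035, beside -0.008 over all tested genes. They were under 0.5 in size for 83.8% of the tested members and for 83.3% of all tested genes.

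**Figure D1:**
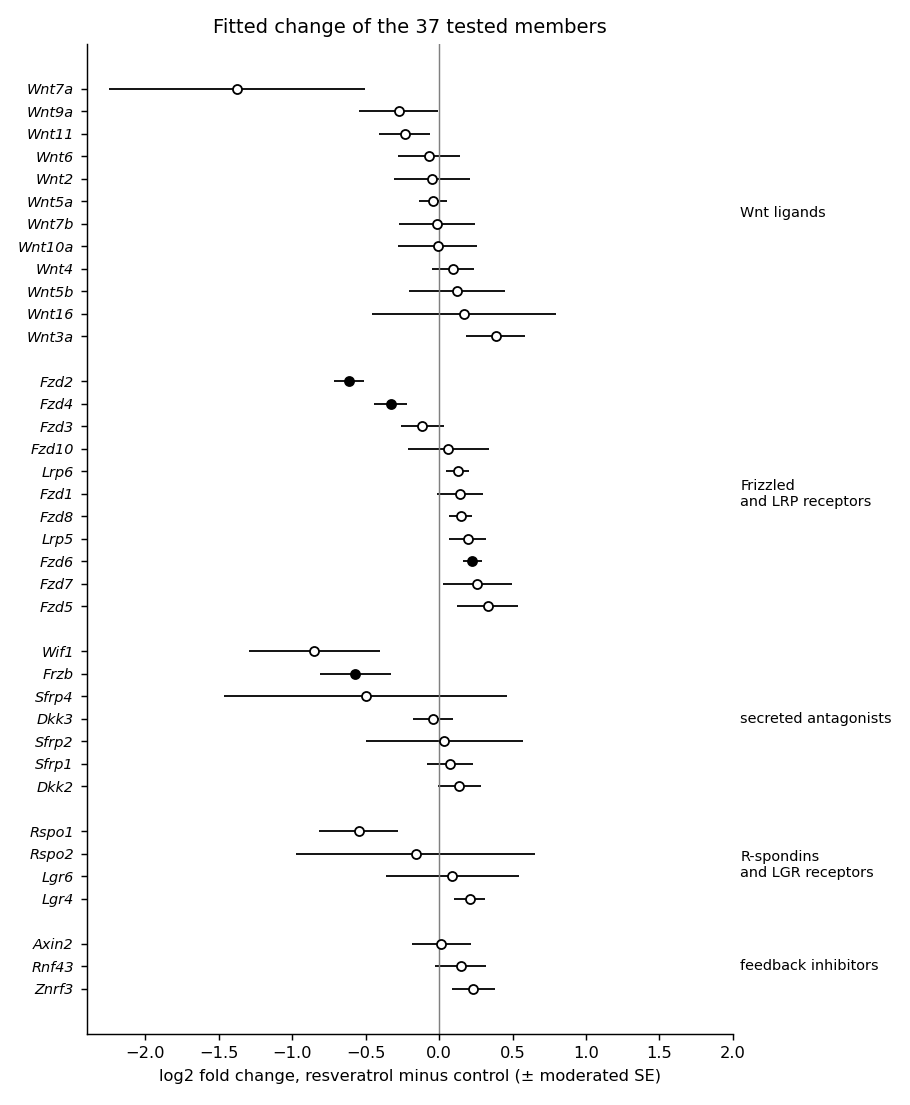
Fitted log2 fold change of each of the 37 tested members, resveratrol minus control, with bars of 1 moderated standard error, grouped by role; filled points have an unadjusted edgeR p under 0.05. The filled points are Fzd2, Fzd4 and Frzb on the lower side and Fzd6 on the higher side, and none passed the adjustment over all genes.

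The ligands were dominated by Wnt4, which signals in several epithelia and made up 48.3% of the summed FPKM of all ligands on average. Wnt4 lay at 61.4, 53.5 and 66.7 FPKM in control libraries 1, 2 and 3 and at 51.5, 74.3 and 70.7 FPKM in resveratrol libraries 1, 2 and 3. Its groups overlapped, with a log2 fold change of 0.095 ± 0.14 (moderated standard error; edgeR adjusted p = 0.745). Wnt10a, a ligand of the β-catenin branch, was second at 14.2 ± 4.25 FPKM in the controls against 14.3 ± 4.54 FPKM with resveratrol (SD, n = 3). It was highest in the third library of each group, at 19.1 and 18.4 FPKM, and the other libraries lay between 9.46 and 15.2 FPKM. Wnt5a, best known for β-catenin-independent signalling, was at 10.8 ± 0.523 and 10.6 ± 1.11 FPKM, and Wnt7b, which acts in epithelia, at 10.3 ± 0.204 and 10.3 ± 3.77 FPKM. Wnt11, another ligand of the β-catenin-independent branch, followed at 10.7 ± 1.21 and 9.18 ± 2.17 FPKM, so the order from Wnt10a to Wnt11 is not set apart from the spread between libraries.

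Of the 12 tested ligands 4 had a fitted change above 0 and 8 below 0 (median -0.028). In edgeR 0 reached an unadjusted p of 0.05, and 0 had groups without overlap, beside 19.6% and 26.5% of all tested genes. Wnt3a, a classical activator of β-catenin, had the highest fitted change of any tested member. Its CPM was 8.74, 8.84 and 13.8 in the controls against 11.7, 15.2 and 14.0 with resveratrol, and control 3 lay within the resveratrol range. The log2 fold change was 0.38 ± 0.20 (edgeR adjusted p = 0.348), and without control 3 it was 0.64 (edgeR unadjusted p = 0.00627). Of the 6 fits that leave out a library, only this 1 gave Wnt3a an unadjusted p under 0.05, which 18.6% of all tested genes reached in it. DESeq2 without control 3 gave Wnt3a an adjusted p of 0.0190, against 0.323 with all libraries, and called it in none of the other such fits. Wnt7a, a ligand of epithelia, had the lowest fitted change (-1.38 ± 0.87, edgeR adjusted p = 0.432) on few counts. Its CPM of 0.374, 1.80 and 1.64 in the controls against 0.109, 0.188 and 1.16 with resveratrol show a high and a low library in both groups. Without resveratrol 3 its log2 fold change was -3.06, and DESeq2 gave an adjusted p of 0.0154. Of the 6 fits that leave out a library, DESeq2 called Wnt7a in this 1 only.

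The resveratrol 1 library held the lowest CPM of 7 of the 12 tested ligands (Wnt4, Wnt10a, Wnt7b, Wnt6, Wnt9a, Wnt2 and Wnt7a), which is 58.3%, while it was the lowest library for 20.1% of all tested genes. Resveratrol 2 was the highest library for 7 of the 12, and for 12.2% of all tested genes. The summed FPKM of all 17 ligands was accordingly 102.1 in resveratrol 1 and 151.6 in resveratrol 2, with 143.6 in resveratrol 3 and 117.9 to 140.9 in control. Wnt7b shows this spread most plainly among the abundant ligands. It was at 34.7, 35.5 and 36.0 CPM in control, a range of 1.04-fold, and at 20.95, 43.5 and 40.9 CPM in resveratrol. Without resveratrol 1 the log2 fold change of Wnt7b was 0.26 (edgeR unadjusted p = 0.0212), against -0.013 ± 0.26 with all libraries. Of the 6 fits that leave out a library, only this 1 gave Wnt7b an unadjusted p under 0.05, which 16.4% of all tested genes reached in it. Wnt9a, at 14.9, 15.95 and 16.9 CPM in control, was at 7.84 CPM in resveratrol 1 and at 17.0 and 14.7 CPM in the others of its group. The summed FPKM of markers of limbal and conjunctival epithelium was also lowest in resveratrol 1. It was 4419 there, 7433 and 6125 in resveratrol 2 and 3 and 6386 to 7745 in control. Of these markers Krt13, Krt4 and Krt7 were lowest in resveratrol 1, while Krt15, Krt19 and Muc5ac were lowest in other libraries. The summed FPKM of markers of blood vessel endothelium, macrophages, T cells and corneal endothelium was lowest in resveratrol 1 too (79.04, 71.59, 2.458 and 43.35). For the remaining marker lists another library was lowest. The part of any of these markers in the ligand values was not tested.

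**Figure D2:**
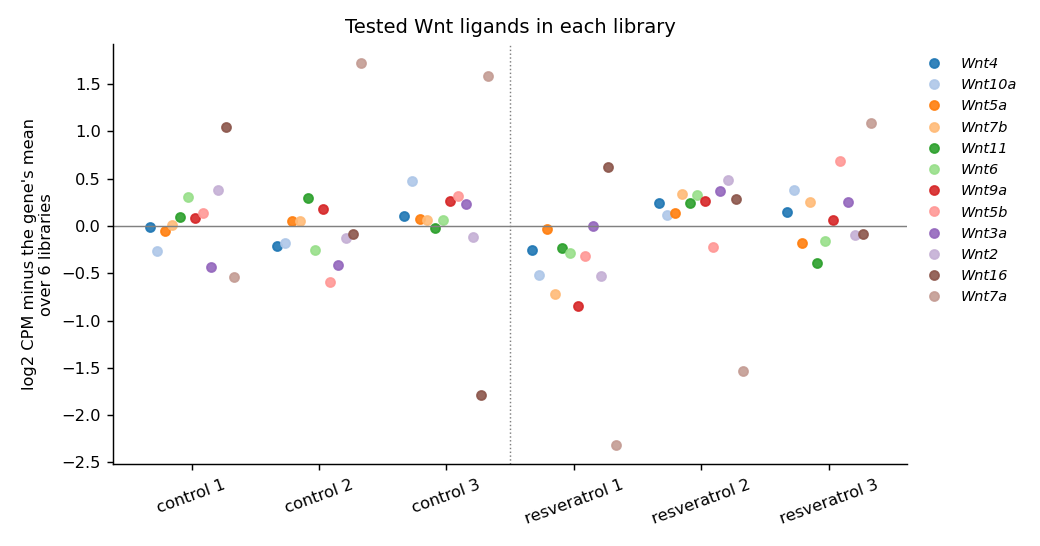
Log2 CPM of each of the 12 tested ligands minus that gene's mean over the 6 libraries, by library; each colour is 1 gene and points are shifted sideways only to separate them. Resveratrol 1 holds the lowest value of 7 ligands and resveratrol 2 the highest value of 7, while Wnt7a and Wnt16, both with few counts, spread most.

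Of the receptors, Fzd2 and Fzd6 differed in opposite directions, and they were the members with the clearest separation of the groups. Fzd2, a receptor for both Wnt branches that is known from mesenchymal cells, was at 38.8, 42.45 and 35.5 CPM in the controls against 23.4, 26.0 and 26.9 CPM with resveratrol. Every resveratrol library lay below every control library, with a gap between 26.9 and 35.5 CPM. The log2 fold change was -0.61 ± 0.10, a level 0.654 times that of control (edgeR unadjusted p = 0.000427, adjusted p = 0.1002; DESeq2 adjusted p = 0.000299). DESeq2 called Fzd2 without any library in turn (adjusted p of 0.000428 to 0.0139), and edgeR called it in none of these fits. In the libraries whose description ends in Oct alone (control 2 and 3, resveratrol 2 and 3), its log2 fold change was -0.56. Fibroblast and vessel markers had lower summed levels in the same libraries, as given above, and their part in the Fzd2 difference was not tested.

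Fzd6, which is known for planar polarity of epithelia and for restraining β-catenin signalling, was at 95.35, 91.35 and 97.45 CPM in the controls against 108.4, 111.9 and 112.0 CPM with resveratrol. The groups did not overlap, and the difference was small, at 0.23 ± 0.065 on the log2 scale or 1.17-fold (edgeR adjusted p = 0.158, DESeq2 adjusted p = 0.0452). The DESeq2 call of Fzd6 was lost without any of the 6 libraries, at adjusted p-values of 0.0892 to 0.302. Fzd8, whose product binds Wnt3a and other ligands, was also higher in each resveratrol library, at 52.7, 47.1 and 51.6 CPM against 57.0, 54.9 and 55.7 CPM (0.15 ± 0.076, edgeR adjusted p = 0.319).

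Fzd4, the receptor for Norrin in vascular endothelium as well as for Wnt ligands, was lower. Its CPM was 23.6, 19.1 and 22.6 in the controls against 16.7, 17.1 and 18.1 with resveratrol, so the lowest control library lay close above the highest resveratrol library. The log2 fold change was -0.33 ± 0.11 (edgeR unadjusted p = 0.0206, adjusted p = 0.187; DESeq2 adjusted p = 0.148). The unadjusted p of Fzd4 was no longer under 0.05 in the Oct libraries alone (-0.24), without control 1 (-0.26), control 3 (-0.30), resveratrol 1 (-0.30) or resveratrol 2 (-0.32), or with limma on FPKM. The markers of blood vessel endothelium had lower summed levels in the same libraries, as given above, and their part in the Fzd4 value was not tested.

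Fzd1, which can signal through β-catenin, had the highest FPKM of the receptors and overlapped between the groups, at 21.0, 33.1 and 27.9 FPKM in the controls against 30.4, 28.4 and 32.6 FPKM with resveratrol. Lrp5 and Lrp6, the co-receptors of the β-catenin branch, were at 17.4 ± 0.693 and 9.75 ± 0.491 FPKM in the controls against 20.2 ± 3.21 and 10.8 ± 0.493 FPKM with resveratrol. Their log2 fold changes were 0.20 ± 0.13 and 0.13 ± 0.080, and both overlapped in CPM. By FPKM the groups of Lrp6 did not overlap, at 9.25 to 10.2 in the controls against 10.4 to 11.3 with resveratrol. Among the 10 Frizzled genes, Fzd2 took 25.6%, 23.6% and 21.1% of the summed FPKM in the controls against 14.2%, 15.9% and 15.6% with resveratrol. Fzd6 took 23.6%, 19.0% and 21.8% in the controls against 24.7%, 25.7% and 24.3% with resveratrol. By FPKM, Fzd2 was thus above Fzd6 in control 1 and 2 and below it in control 3 and in every resveratrol library. Summed over the 10 Frizzled genes, the level was 78.6 to 93.5 FPKM in the controls against 84.6 to 92.7 FPKM with resveratrol and overlapped. The remaining tested receptors (Fzd3, Fzd5, Fzd7 and Fzd10) overlapped between the groups, with log2 fold changes of -0.11 to 0.33. In all, 8 of the 11 tested receptors had a fitted change above 0, with a median of 0.14. Of all tested genes 48.8% had one above 0, with a median of -0.008.

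**Figure D3:**
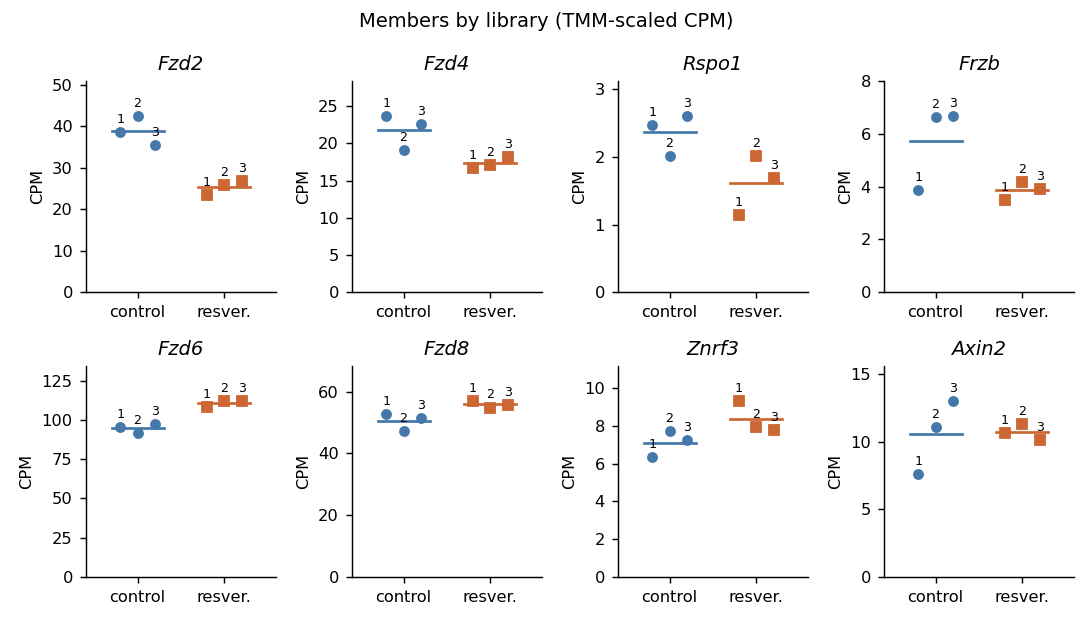
TMM-scaled CPM of 8 members in each library, with axes from 0, library numbers beside the points and lines at the group means; resver. is resveratrol. Fzd2, Fzd4 and Rspo1 are lower and Fzd6, Fzd8 and Znrf3 higher in resveratrol without overlap of the groups, while Frzb and Axin2 overlap.

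Sfrp1, Dkk2 and Dkk3 supplied most of the antagonist transcripts by FPKM, and none of them differed beyond its spread. Sfrp1, which binds Wnt ligands, was at 30.2, 21.4 and 26.2 FPKM in the controls against 32.0, 25.0 and 25.7 FPKM with resveratrol (log2 fold change 0.076 ± 0.16). Dkk2, which binds LRP5 and LRP6 and is known for keeping the corneal epithelium from turning skin-like, was at 21.3, 22.2 and 19.4 FPKM in the controls against 25.3, 25.9 and 18.7 FPKM with resveratrol (0.14 ± 0.14). Both had libraries of one group within the range of the other. Dkk3, a divergent member of its family, was at 16.5 ± 0.375 and 16.2 ± 2.76 FPKM. Without resveratrol 3, the library with the lowest Dkk2 level, the log2 fold change of Dkk2 was 0.30 (edgeR unadjusted p = 0.0154). Of the 6 fits that leave out a library, only this 1 gave Dkk2 an unadjusted p under 0.05, which 16.4% of all tested genes reached in it.

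The less abundant antagonists varied widely within a group. Frzb, a secreted Frizzled-related protein, was at 3.88, 6.64 and 6.68 CPM in the controls against 3.50, 4.19 and 3.90 CPM with resveratrol. Control 1 lay inside the resveratrol range, and the other controls lay above it (-0.57 ± 0.24, edgeR unadjusted p = 0.0485, adjusted p = 0.252). The unadjusted p of Frzb was not under 0.05 without any 1 of the other 5 libraries (-0.63 to -0.45), nor with RLE factors, voom or limma on FPKM. In edgeR, Frzb stayed under it in the Oct libraries alone (-0.72, unadjusted p = 0.00818). It also did so with the Sep or Oct ending as covariate (unadjusted p = 0.0246) and with a replicate block (unadjusted p = 0.0436). Without control 1 its log2 fold change was -0.78, and DESeq2 gave an adjusted p of 0.0170 against 0.2165 with all libraries. Of the 6 fits that leave out a library, DESeq2 called Frzb in this 1 only. Wif1, which binds Wnt ligands directly, was at 17.4, 5.55 and 7.10 CPM in the controls against 7.62, 5.40 and 3.63 CPM with resveratrol. Control 1 was the highest library by a wide margin, and the other controls lay within the resveratrol range (-0.85 ± 0.45, edgeR adjusted p = 0.351). Sfrp4 ranged from 0.345 to 6.61 CPM in control, a span of 19.2-fold, and from 1.21 to 3.47 CPM in resveratrol. Sfrp2 spread in the treated group instead, at 6.04, 3.81 and 1.19 CPM, against 3.02 to 3.89 CPM in control. In all, 10 of the 37 tested members differed by over 2-fold between libraries of the same group, among them these 3 antagonists Wif1, Sfrp2 and Sfrp4. How many of all tested genes did so was not counted.

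R-spondin transcripts were scarce, and their receptors were represented almost entirely by Lgr4. Lgr4, which binds R-spondins in many tissues, made up 89.3% of the summed FPKM of its role. It was at 44.3, 44.5 and 50.4 CPM in the controls against 59.6, 53.2 and 48.0 CPM with resveratrol, and resveratrol 3 lay within the control range (0.21 ± 0.10, edgeR adjusted p = 0.311). Lgr5, a stem cell marker of intestine and hair follicle, had at most 2 counts in a library, and Lgr6 had 7 to 20. Rspo1, the most abundant ligand of this class, was at 2.47, 2.01 and 2.60 CPM in the controls against 1.15, 2.01 and 1.69 CPM with resveratrol. The lowest control and the highest resveratrol library were equal to 3 digits, and with RLE scaling factors the groups of Rspo1 overlapped. Its log2 fold change was -0.55 ± 0.27 (edgeR adjusted p = 0.330). Rspo2 had 1 to 26 counts per library, and Rspo3 and Rspo4 had at most 7.

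**Figure D4:**
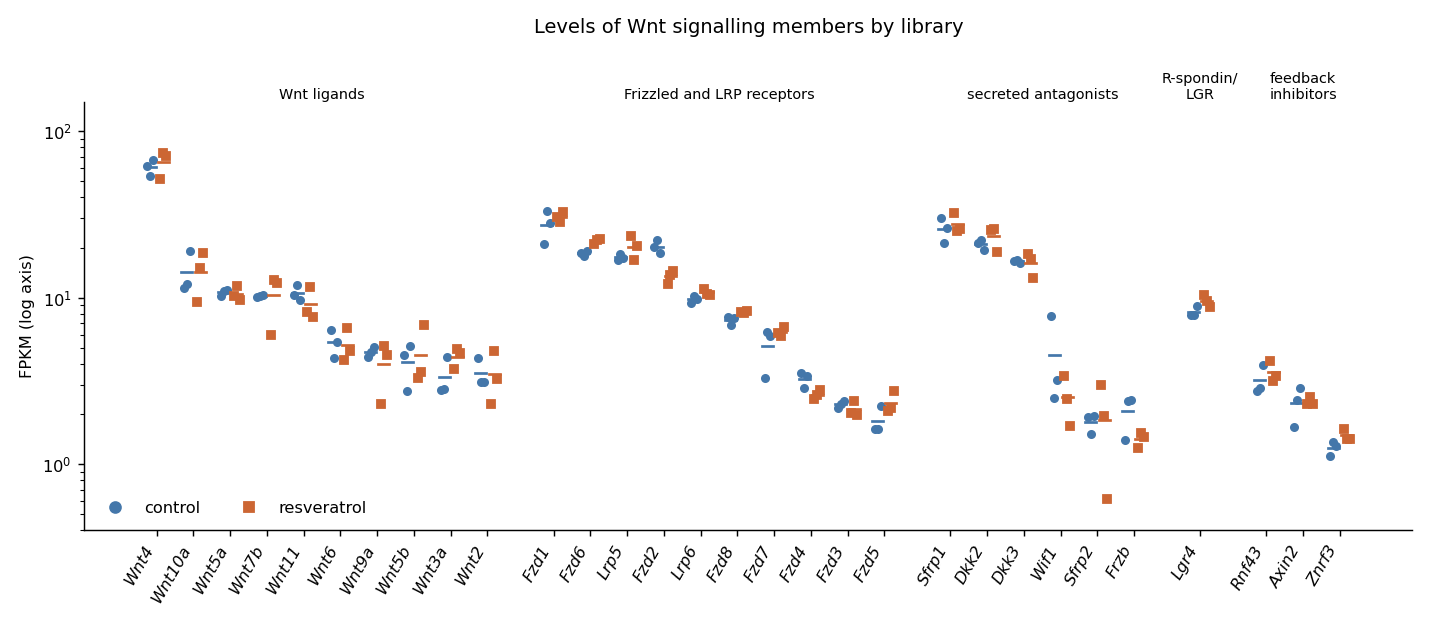
FPKM on a log axis for every member with a mean of at least 1 FPKM, by role; each point is a library and lines are group means. Wnt4 stands above all other members in every library, Lgr4 is the only R-spondin or LGR gene at this level, and the groups of most members overlap.

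The feedback inhibitors are transcribed in response to β-catenin and are often read as a measure of pathway output. Axin2, a scaffold of the destruction complex, was at 7.59, 11.1 and 13.0 CPM in the controls against 10.6, 11.3 and 10.1 CPM with resveratrol. The resveratrol libraries fell inside the control range, with a log2 fold change of 0.015 ± 0.20 (edgeR adjusted p = 0.976). Rnf43, a ubiquitin ligase that removes Frizzled receptors, overlapped as well, at 29.4, 30.8 and 42.4 CPM against 45.0, 33.2 and 35.3 CPM (0.15 ± 0.17). Znrf3, a ligase of the same kind, was at 6.32, 7.73 and 7.24 CPM in the controls against 9.31, 7.95 and 7.79 CPM with resveratrol. Its groups touched nearly, between 7.73 and 7.79 CPM, and with upper-quartile factors they overlapped (0.23 ± 0.15, edgeR adjusted p = 0.410). In the Oct libraries alone the log2 fold change of Znrf3 was 0.075.

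Nkd1, a feedback inhibitor that acts on Dishevelled and is another β-catenin target, had groups without overlap. It is no member by the symbol rule and came from a list of β-catenin target genes. Nkd1 was at 5.29, 5.77 and 4.88 CPM in the controls against 2.79, 2.79 and 2.90 CPM with resveratrol, so all resveratrol libraries lay well below all controls. The log2 fold change was -0.91 ± 0.16 (edgeR unadjusted p = 0.000750, adjusted p = 0.1002; DESeq2 adjusted p = 0.000577), and DESeq2 called it also without each library in turn. The upstream sequences of both targets are shown because the groups separated for Nkd1 and overlapped for Axin2, a contrast between genes that was not tested, and that of Fzd4 because it is the receptor with lower levels that has an entry in the RefSeq promoter table of GRCr8. Each is the 250 bases before the annotated transcription start, 5′ to 3′ on the gene's strand, with TCF/LEF core words in capitals. The words searched on both strands were CTTTGAT and its variant CTTTGAA, then CTTTGTT and its variant CTTTGTA, and no matches overlapped.
Axin2 (chr10:94398535-94398784, plus strand): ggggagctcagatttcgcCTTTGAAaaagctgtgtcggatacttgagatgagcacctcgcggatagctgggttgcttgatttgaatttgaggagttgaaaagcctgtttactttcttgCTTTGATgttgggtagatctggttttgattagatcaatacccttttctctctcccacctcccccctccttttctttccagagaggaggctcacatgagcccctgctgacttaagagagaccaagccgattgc
Nkd1 (chr19:34722847-34723096, minus strand): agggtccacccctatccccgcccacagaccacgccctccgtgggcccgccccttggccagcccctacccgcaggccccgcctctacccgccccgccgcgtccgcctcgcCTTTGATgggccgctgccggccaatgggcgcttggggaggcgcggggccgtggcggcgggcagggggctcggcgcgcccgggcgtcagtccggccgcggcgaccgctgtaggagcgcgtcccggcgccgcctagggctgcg
Fzd4 (chr1:152692257-152692506, plus strand): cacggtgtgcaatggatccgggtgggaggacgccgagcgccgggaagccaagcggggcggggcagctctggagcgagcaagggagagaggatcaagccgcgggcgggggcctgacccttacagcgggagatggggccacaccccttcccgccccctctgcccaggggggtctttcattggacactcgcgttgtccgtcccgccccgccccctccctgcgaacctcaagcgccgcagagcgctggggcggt

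The Axin2 window holds 2 such words, which begin 232 and 132 bases before the start, the Nkd1 window holds 1, at 141 bases, and the Fzd4 window holds 0. RefSeq lists 33469 windows of this length, of which 14.9% hold at least 1 such word, and of the 32 members with an entry 3 do (Axin2, Dkk1 and Sfrp5), or 9.38%. G and C make up 47.6% of the Axin2 window, 80.0% of that of Nkd1 and 71.6% of that of Fzd4. These matches describe the letters only. The files use the build mRatBN7.2, so these coordinates belong to the RefSeq table and not to the counts.

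The 12 members that did not pass the filter had at most 17 counts in any library. They were the ligands Wnt2b, Wnt3, Wnt8b, Wnt9b and Wnt10b, the receptor Fzd9, the antagonists Dkk1, Dkk4 and Sfrp5, and Rspo3, Rspo4 and Lgr5. Dkk1, an inhibitor of LRP5 and LRP6, had 2 counts in resveratrol 1 and 0 in the other libraries, where a count of 0 allows up to 0.0790 to 0.0862 CPM. Wnt2b had 5, 10 and 1 counts in control and 1 in each resveratrol library. Of the 51 protein-coding RefSeq symbols that meet the rule, 49 are in the count table, and Wnt1 and Wnt8a are not among its rows.

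Other genes of the pathway were taken from 5 lists that hold 58 genes beyond the members, of which 53 were tested. None passed in edgeR (smallest adjusted p = 0.1002), while 16 had an unadjusted p under 0.05, 7 higher and 9 lower, or 30.2% of those tested beside 19.6% of all tested genes. DESeq2 called 8, 3 higher and 5 lower, beside 6.87% of all genes it could call. Without each library in turn, it called Nkd1 and Celsr1 in 6 of 6 fits, Cthrc1, Gsk3b and Daam2 in 3, Sostdc1 and Tspan12 in 2 and Gpc4 in 1. The groups did not overlap for 19 genes, 8 higher and 11 lower, or 35.8% beside 26.5% of all tested genes, and the median log2 fold change was 0.0063. Of the 3 genes of Wnt secretion 2 were tested; Wls, which carries lipid-modified Wnt to the cell surface, was the most abundant of them (-0.077 ± 0.066) and Porcn, which attaches the lipid, differed by -0.015 ± 0.092.

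Co-receptors and extracellular modulators outside the symbol rule gave 6 of 12 tested genes at an unadjusted p under 0.05, 1 higher and 5 lower, with a median log2 fold change of -0.25; 7.84% of all tested genes were higher and 11.7% lower at this p. Sostdc1, a secreted antagonist of BMP and Wnt signals, was at 6.84, 11.1 and 15.5 CPM in the controls against 5.98, 5.24 and 4.87 CPM with resveratrol (-1.05 ± 0.28, edgeR adjusted p = 0.137, DESeq2 adjusted p = 0.0151), and DESeq2 kept this call only without control 1 or resveratrol 1. It varied within control and hardly within resveratrol. Cthrc1, a secreted protein of activated fibroblasts that favours the polarity branch, was at 69.4, 41.7 and 47.0 CPM in the controls against 26.1, 31.4 and 34.6 CPM with resveratrol (-0.78 ± 0.20, DESeq2 adjusted p = 0.0121), a call lost without control 1, resveratrol 1 or resveratrol 2. Gpc4, a glypican, was lower by a smaller margin and with little spread (-0.40 ± 0.095, DESeq2 adjusted p = 0.0201), and its call was kept only without resveratrol 1. Kremen1, a DKK receptor (-0.36 ± 0.11), and Ptk7, a polarity co-receptor (-0.36 ± 0.14), were lower without a DESeq2 call, and Ptk7 was the most abundant of this list. Tspan12, a partner of FZD4 in Norrin signalling, was higher, at 101.8, 104.9 and 94.7 CPM in the controls against 131.5, 119.4 and 124.5 CPM with resveratrol (0.32 ± 0.075, DESeq2 adjusted p = 0.00901), while Fzd4 itself was lower. The Tspan12 call was kept only without control 2 or resveratrol 2. Ndp, the gene of Norrin, had 1 to 6 counts per library and was not tested.

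**Figure D5:**
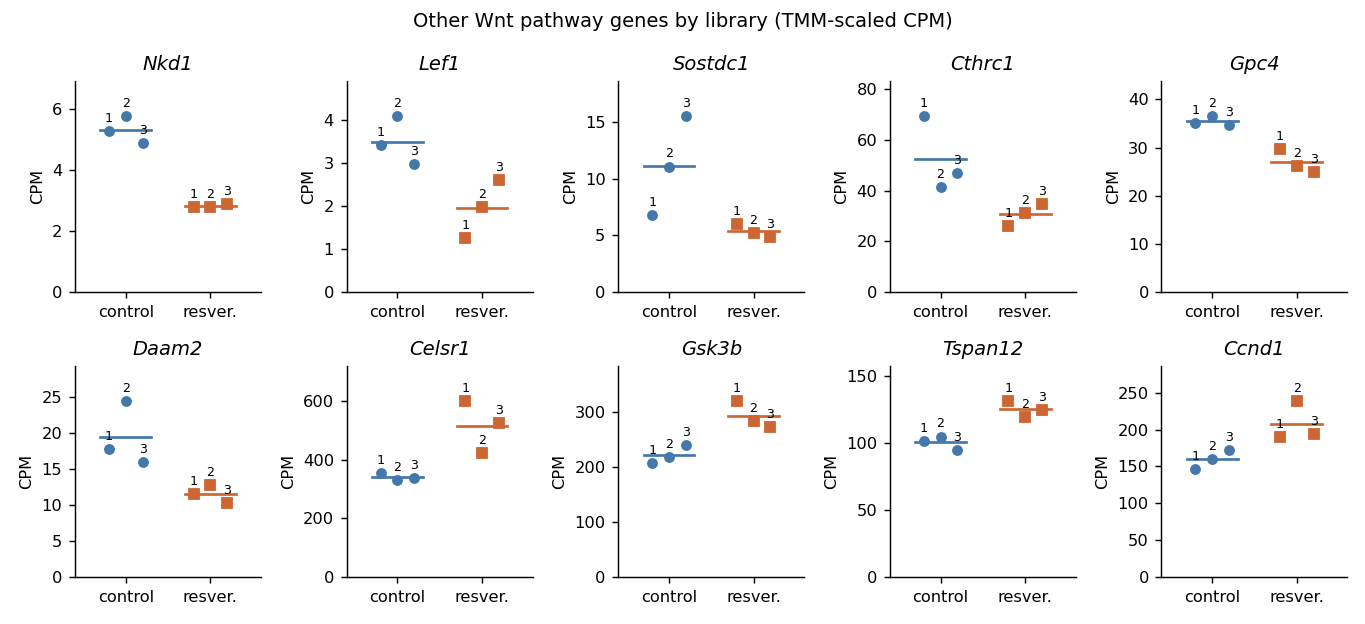
TMM-scaled CPM of 10 Wnt pathway genes outside the symbol rule in each library, with axes from 0, library numbers beside the points and lines at the group means; resver. is resveratrol. Nkd1, Lef1, Sostdc1, Cthrc1, Gpc4 and Daam2 are lower and Celsr1, Gsk3b, Tspan12 and Ccnd1 higher in resveratrol, each without overlap of the groups.

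In the β-catenin core, 4 of 23 tested genes had an unadjusted p under 0.05, or 17.4%, 3 higher and 1 lower, a share close to the 19.6% of all tested genes. Gsk3b, the kinase that marks β-catenin for degradation, was at 206.9, 218.3 and 239.1 CPM in the controls against 319.2, 283.3 and 272.4 CPM with resveratrol (0.40 ± 0.091, edgeR adjusted p = 0.125, DESeq2 adjusted p = 0.00764), a call lost without control 1, control 2 or resveratrol 1. Apc (0.22 ± 0.070) and Axin1 (0.17 ± 0.071), which scaffold the destruction complex, differed less, and DESeq2 called neither. Ctnnb1, which encodes β-catenin, was the most abundant gene of the list and differed by 0.0035 ± 0.093. Lef1, a β-catenin partner that is itself a target and is also expressed by T cells, was the lower gene, at 3.42, 4.08 and 2.98 CPM against 1.26, 1.99 and 2.61 CPM (-0.84 ± 0.30, edgeR adjusted p = 0.205), and DESeq2 called it only without resveratrol 3. The T cell markers had lower summed levels in the same libraries, as given above, and their part in the Lef1 value was not tested.

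Target genes did not move in a common direction. Of 12 tested targets, which include Axin2, Rnf43 and Znrf3, 6 had a fitted change above 0 and 6 below 0, and 3, or 25.0% beside 19.6% of all tested genes, had an unadjusted p under 0.05. These were Nkd1 and Lef1 on the lower side and Ccnd1, which encodes cyclin D1 and also answers to growth factors, on the higher side (0.38 ± 0.11, DESeq2 adjusted p = 0.0524, called only without control 3). Cd44, the most abundant target, differed by 0.047 ± 0.11, and Myc lay between 18.8 and 71.9 CPM in the controls and from 38.7 to 48.2 CPM with resveratrol; DESeq2 called it lower only without control 1.

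Planar polarity genes had 4 of 9 tested genes at an unadjusted p under 0.05, 2 higher and 2 lower, or 44.4% beside 19.6% of all tested genes. Celsr1, a polarity cadherin of epithelia and the most abundant of the list, was at 353.2, 330.9 and 336.4 CPM in the controls against 599.7, 422.1 and 525.8 CPM with resveratrol. Every resveratrol library lay above every control library, and resveratrol 2 lay nearer to the control range than to the other libraries of its group. The log2 fold change was 0.60 ± 0.13 (edgeR adjusted p = 0.116, DESeq2 adjusted p = 0.00138), and DESeq2 called Celsr1 also without each library in turn. Prickle2, a cytoplasmic polarity protein, was higher with overlapping groups (0.40 ± 0.15), and its relative Prickle1 was lower (-0.72 ± 0.22), which DESeq2 called only without control 3 or resveratrol 3. Daam2, a formin that binds Dishevelled, was at 17.8, 24.4 and 15.9 CPM in the controls against 11.5, 12.7 and 10.2 CPM with resveratrol (-0.76 ± 0.18, DESeq2 adjusted p = 0.00846), a call lost without control 2, resveratrol 1 or resveratrol 3. Vangl1 and Vangl2, the membrane proteins of the polarity core, differed by 0.082 ± 0.099 and -0.066 ± 0.17.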

How the data were processed

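For 6 cornea libraries the authors deposited raw counts per gene symbol, as whole numbers without normalization, per the file headers. The authors also deposited FPKM for these genes, per the file headers. Reads were 150 bp paired-end from an Illumina instrument, per the labels' protocols. The submitters' processing notes name mRatBN7.2, R 3.2.0 and DESeq2. Aligner, counter, annotation and strand setting: not given in the sources used here. Whether reads of overlapping antisense genes were kept apart is therefore not known. A separator was missing in the header of the counts, and columns were assigned by name; single-library FPKM files that the authors deposited equalled the FPKM table in 6 of 6 libraries.

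Counts were filtered with filterByExpr (14213 of 17771 genes tested; the others held 0.0237% of counts), scaled with TMM and tested with edgeR 4.0.16 (quasi-likelihood, resveratrol against control, all 6 libraries and no further term; R 4.3.3), and p-values were adjusted by Benjamini-Hochberg over all tested genes, with 0.05 as threshold. Standard errors come from limma 3.58.1 (trend, log2 CPM with a prior count of 2). DESeq2 1.42.0 was an alternative. The edgeR and DESeq2 code was tested on simulated data. FPKM was used to compare genes and for sums over genes. Library values are given in FPKM for some members and in TMM-scaled CPM for the other genes. Groups without overlap were counted on CPM. No pair of libraries was a duplicate: chi-square divided by its degrees of freedom was 32.4 to 96.6 over all pairs.

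Members, lists and tests were chosen with earlier results of these data known. Values are given for members with an unadjusted p under 0.05, a DESeq2 call or groups without overlap, and for the 2 with the highest FPKM of each role. From the other lists, genes with an unadjusted p under 0.05 and the most abundant were taken. Further members (such as Wnt3a, Wnt7a, Wif1 and Sfrp2) were added after their values were seen. Alternatives covered scaling, filter, test, replicate block, the Sep or Oct ending of the descriptions, FPKM and leaving out each library. DESeq2 without each library was added after seeing the data.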

Additional observations from a re-analysis of the deposited data

How the results depend on the processing

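Depth left 12 members, with at most 17 counts in a library, untested. The count of 0 members past the adjusted threshold in edgeR stayed 0 under every edgeR, voom and FPKM alternative run. Over all genes these fits also called 0, except for 21 genes without control 3 and 1 without resveratrol 2. DESeq2 gave 2 members with all libraries, and 1 or 2 without each library in turn, beside 1007 and 390 to 1027 of all genes. No pairing of replicate numbers was seen (correlations of same-numbered libraries of -0.004 to -0.023). A replicate block gave 0 adjusted calls of members and 6 unadjusted ones, beside 19.2% of all tested genes at this unadjusted p. The 4 members at an unadjusted p under 0.05 became 2 with limma on log2(FPKM + 1), 2 with log2(FPKM + 0.1), and 3 to 6 without each library in edgeR. Of all tested genes 19.1%, 19% and 12.6% to 18.6% reached it in these fits. The 6 members without overlap became 5 with RLE or upper-quartile factors and 8 to 10 without each library, where groups of 2 separate more easily. The share of all tested genes without overlap was not computed for these alternatives. For the other pathway genes DESeq2 called 8 with all libraries, and 4 to 7 without each library in turn. In edgeR 0 of them were called with all libraries and in each of these fits. Of 345 alternative log2 fold changes of 15 members 22 had the opposite sign to edgeR with all libraries, all of members whose groups overlapped. In the Oct libraries alone these were Fzd1 (-0.0302), Wnt10a (0.073), Rnf43 (-0.091) and Axin2 (-0.17). DESeq2 gave Wnt10a 0.0055, RLE factors gave Wnt10a 0.0026 and upper-quartile factors gave Axin2 -0.0076. Without each library edgeR gave ranges of -0.012 to 0.30 for Fzd1, -0.0035 to 0.235 for Wnt4, -0.21 to 0.262 for Wnt10a, -0.17 to 0.194 for Axin2 and -0.058 to 0.21 for Sfrp1. DESeq2 gave the opposite sign to edgeR with all libraries for Fzd1 without control 1 (-0.0059), for Wnt10a without control 3 (0.28) or resveratrol 1 (0.225), for Axin2 without control 1 (-0.164) or resveratrol 2 (-0.0164), and for Sfrp1 without control 2 (-0.0319) or resveratrol 1 (-0.0442). Against its own value with all libraries, DESeq2 turned for Wnt10a without control 1, control 2, resveratrol 2 or resveratrol 3 (-0.2052 to -0.0353). The cause of these shifts was not tested.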
